A study of Mus musculus with 4 samples.

Results

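Complement is a set of plasma and cell surface proteins that tags microbes and debris for removal, and 9 of its genes were followed here in mouse primary myotubes treated with EDA-A2. The genes were taken by name: C3, the early components and proteases C4b, C1ra, C1s1 and C2, the alternative pathway proteases Cfb and Cfd, and the inhibitors Serping1 and Cd55. They are 9 of the 53647 genes in the count tables, and 6 of them had enough reads to be tested. The cultures came from wild type (WT) myoblasts of the limb muscles of pups aged 2 to 3 days. They were differentiated for 48 h, the EDA-A2 group was then exposed to recombinant EDA-A2 at 250 ng/mL over 24 h, and the harvest was at 72 h. The Control group carries the same 24 h label, and the labels do not name its vehicle. Each group had 2 libraries, which are not stated to come from separate animals or cultures, so p-values measure the spread between these libraries, which may be technical. EDA-A2 is a ligand of the tumour necrosis factor family, and its receptor EDA2R signals through NFκB.

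Complement can be started by the classical, the lectin or the alternative pathway. In the classical pathway C1q binds a target and switches on the proteases C1r and C1s, which cut C4 and C2. In the lectin pathway mannose-binding lectin, ficolins or collectins bind sugars and act through the MASP proteases, and in the alternative pathway factor D cuts factor B once it is bound to C3. All of them meet at C3, whose cleavage coats the target and leads on to C5 and the membrane attack complex. Serping1, the C1 inhibitor, blocks C1r, C1s and the MASPs, and Cd55 on the cell surface takes apart the enzymes that cut C3. Most plasma complement is made by the liver, and other cells can make some of its components.

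The libraries were alike in depth, with 29444155 to 29746863 read pairs on genes. At this depth a count of 0 allows up to 3 counts, or 0.101 to 0.102 CPM (counts scaled to the library total), for counting error only. Normalized counts are counts scaled by the trimmed mean of M-values (TMM) method, with factors of 0.972 to 1.03. All 10 myotube markers were detected, and 4 of them were lower after EDA-A2, with Myh3, embryonic myosin, at 158140 ± 2753 normalized counts against 235226 ± 2299 in Control (SD, n = 2 per group). The muscle creatine kinase gene Ckm had 2741 ± 277 against 3529 ± 658 and was not called.

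C3 was the only one of the 9 genes called differentially expressed. Its normalized counts were 140.1 and 129.1 in Control and 199.0 and 209.3 after EDA-A2, from raw counts of 136, 128, 203 and 213. Both EDA-A2 libraries lay above both Control libraries, and the gap was wider than the distance between the libraries of either group. The means were 135 ± 7.81 in Control and 204 ± 7.32 after EDA-A2 (SD, n = 2 per group). C3 rose 1.52-fold, a log2 fold change of 0.60 (standard error 0.15, 95% interval 0.27 to 0.93, edgeR quasi-likelihood test, Benjamini-Hochberg adjusted p = 0.0363 over 15173 genes). Over all genes tested, 2.45% were called higher and 2.13% lower by the same test, and the 6 tested genes gave 1 call higher and 0 lower. Bulk RNA cannot tell a change in RNA per cell from a change in the number of cells that make it.

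The size of the C3 difference was stable and its call was not. When each library was left out in turn, the log2 fold change stayed between 0.54 and 0.66, while the adjusted p in edgeR rose to between 0.148 and 0.288. Without either Control library no gene of the whole table was called by edgeR, against 371 higher and 323 lower with all 4 libraries. Without EDA-A2 replicate 1 there were 238 genes called higher and 164 lower, and without EDA-A2 replicate 2 there were 207 and 170, and C3 was among none of these (edgeR adjusted p = 0.148 and 0.274). The call for C3 was also lost when the filter on low counts was dropped (edgeR adjusted p = 0.170) and in DESeq2 (adjusted p = 0.163).

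**Figure D1:**
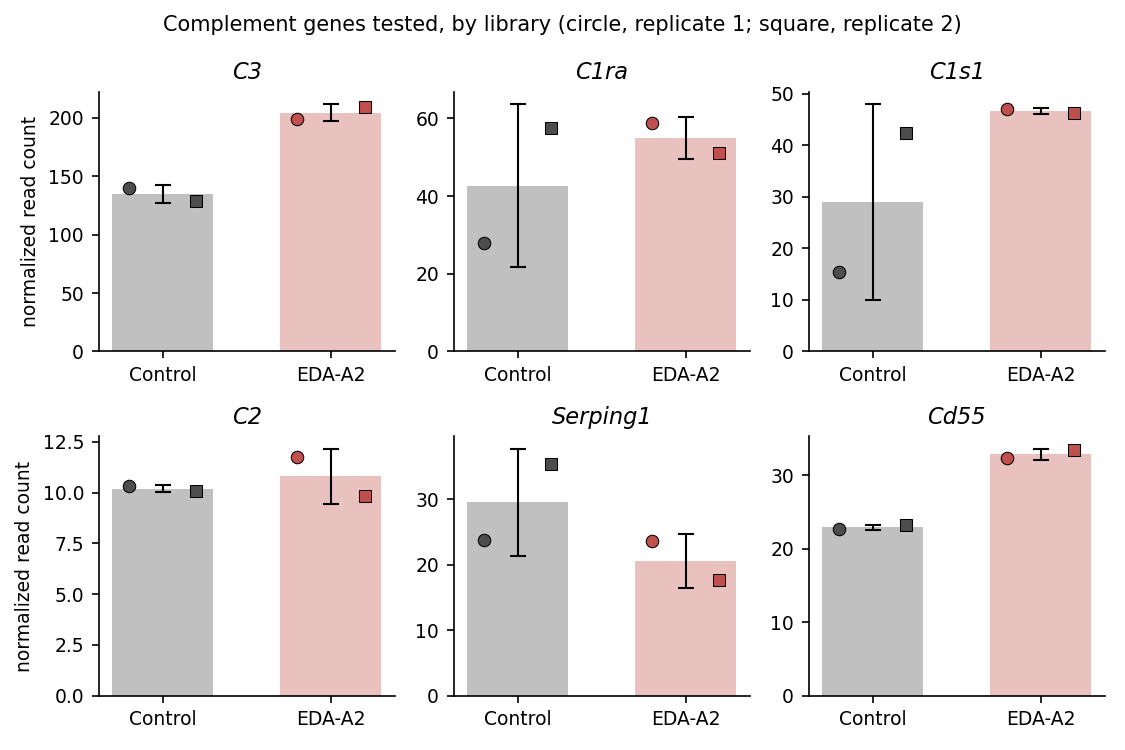
Normalized read counts (vertical axes, from 0) of the 6 tested complement genes in the Control and EDA-A2 libraries; bars are means of 2 libraries, error bars are SD, and circles and squares are replicates 1 and 2. C3 is at 199.0 and 209.3 in the EDA-A2 libraries, above both Control libraries, while the Control libraries of C1ra and of C1s1 stand far apart.

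C3 (ENSMUSG00000024164) lies on the minus strand of chromosome 17, at chr17:57510964-57535155 of GRCm39. None of its exonic bases overlap another gene of the tables, and 0 of the 5059 windows of 100 bases along its transcript, the length of a read, occur in a transcript of another gene. The RefSeq promoter table, on the GRCm38.p6 assembly, holds promoters for 5 of the 9 genes (C3, C1ra, C1s1, Cfd and Cd55), 6 in all because C1s1 has 2 starts. The 250 bases before the start of C3, the gene that was called, are printed 5′ to 3′ on its own strand (chr17:57228137-57228386 of GRCm38.p6, minus strand), with matches to the C/EBP word in capitals.
C3 promoter: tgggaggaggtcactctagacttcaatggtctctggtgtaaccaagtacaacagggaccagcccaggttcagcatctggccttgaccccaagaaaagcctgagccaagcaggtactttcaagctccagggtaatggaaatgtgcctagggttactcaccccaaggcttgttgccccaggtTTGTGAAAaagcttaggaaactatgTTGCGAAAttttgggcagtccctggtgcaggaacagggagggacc
The words searched on both strands were GGGANTTTC, GGGAANTTC and GGGANNTCC for NFκB, GAAANNGAA for the interferon stimulated response element, TTCNNNGAA for the GAS element, TTGNNNAA for C/EBP and TATAAA, and some of these can overlap one another. C3 held 2 matches to TTGNNNAA, whose first bases are at positions -70 and -45 from the start. C1ra and 1 of the starts of C1s1 held 1 match each. This word occurs in 33.3% of the 32851 promoters of the table over the same 250 bases. None of the 6 promoters of these genes held any of the other words. Those occur in 0.941%, 0.907% and 3.59% of all promoters for the NFκB words in the order above, in 7.13% for the interferon element, in 7.02% for GAS and in 12.4% for TATAAA. A match is a run of letters and not a bound site, and no match speaks only of these letters in this window.

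Per annotated exonic base, C3 was the most abundant of the 9 genes. Levels are given as FPKM, read pairs scaled to the length of all annotated exons of each gene and to the library size. C3 averaged 1.10 FPKM over the 4 libraries, with 0.878 in Control and 1.33 after EDA-A2, and 28.8% of the tested genes had a lower mean FPKM. After it came C1ra at 0.517, C1s1 at 0.368, Serping1 at 0.279, Cd55 at 0.160 and C2 at 0.0822 FPKM. The lowest library of C3 (0.842) was above the highest of C1ra (0.624). The ranges over libraries of C1ra (0.295 to 0.624), C1s1 (0.150 to 0.458) and Serping1 (0.197 to 0.393) overlapped, so these neighbours in the order did not differ beyond their spread. Cd55, at 0.130 to 0.191, lay just under the lowest library of Serping1 but overlapped C1s1. C2, at 0.0770 to 0.0921, lay under all of them. The exon length of C2 includes 38.4% of bases shared with another annotated gene, Gm20547, where reads match more than 1 gene. For C1ra, 35.9% of the 100-base windows occur in another gene as well. The levels of C2 and C1ra may thus be too low, by an amount that these shares do not give, and their places in the order are uncertain. The median over all tested genes was 3.22 FPKM, above the mean of each of the 9.

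**Figure D2:**
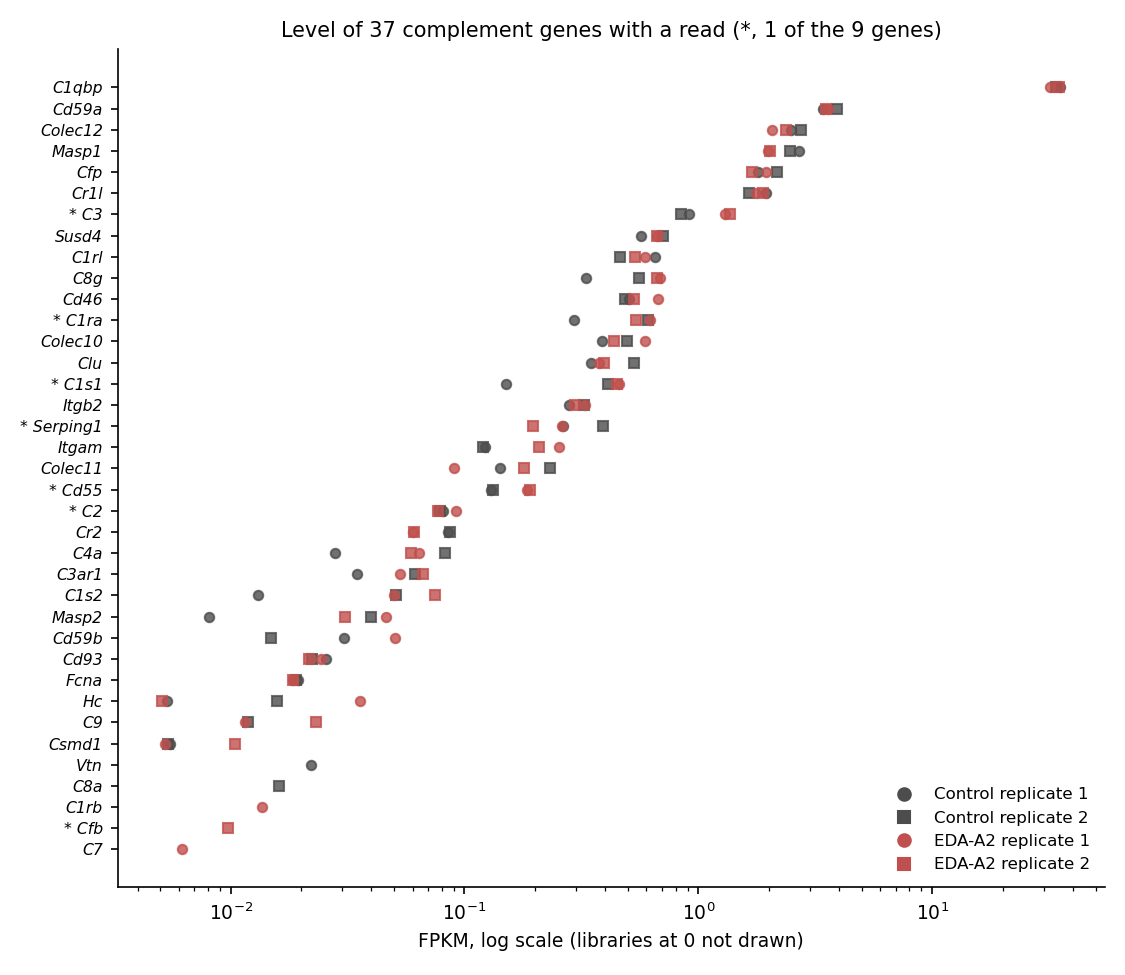
Level in FPKM (horizontal axis, log scale) of 37 of the 38 genes with a read in any library, out of a wider complement list of 59, ordered by mean; symbols are libraries, an asterisk marks the 9 genes, and libraries at 0 are not drawn. C3 averages 1.10 FPKM, and the other detected genes of the 9 have means between 0.00243 (Cfb) and 0.517 (C1ra).

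C1ra and C1s1 encode the proteases of the C1 complex and sit close together on chromosome 6, C1ra on the plus strand (chr6:124489364-124500402 of GRCm39) and C1s1 on the minus strand (chr6:124507297-124559389). C1ra (ENSMUSG00000055172) had 27.8 and 57.5 normalized counts in Control and 58.8 and 51.1 after EDA-A2. The groups overlapped, and the log2 fold change of 0.36 had a standard error of 0.31 (95% interval -0.31 to 1.03, edgeR adjusted p = 0.677). C1s1 (ENSMUSG00000038521) had 15.5 and 42.4 normalized counts in Control and 47.0 and 46.2 after EDA-A2. The groups of C1s1 did not overlap, but Control replicate 2 was close to both EDA-A2 libraries and Control replicate 1 far below. Its log2 fold change was 0.68 (standard error 0.37, 95% interval -0.11 to 1.47, edgeR adjusted p = 0.423). Neither gene was called.

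Both values moved with the Control libraries. Without Control replicate 1, the log2 fold change of C1ra was -0.063 and that of C1s1 was 0.14, and without Control replicate 2 they were 0.98 and 1.59. Control replicate 1 was under Control replicate 2 in 4 of the 6 tested genes and in 16 of the 24 tested genes of the wider list, against 50.1% of all tested genes. It stood below the other 3 libraries also for C4a, a near-identical copy of C4b, and for C8g, a subunit of the membrane attack complex. C8g, named here after its values were seen, had 18.5 normalized counts in that library and 31.3, 38.2 and 37.3 in the others. This did not hold for every gene. Cd55, counted among the 4, was almost equal in the Control libraries (22.7 and 23.2 normalized counts). C1rl, beside C1ra and also named after its values were seen, was highest in Control replicate 1. It had 58.7 there and 41.3, 52.9 and 48.2 in the others. Whether Control replicate 1 differs for complement genes as a group was not tested.

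The C1r and C1s genes each have a near-identical copy in the mouse, C1rb and C1s2. Read pairs that lie wholly in shared stretches cannot be given to either. The coding sequences of C1ra and C1rb were identical at 98.0% of 2118 aligned bases, and those of C1s1 and C1s2 at 95.7% of 2082. Of the 100-base windows along the transcripts, 35.9% of C1ra and 7.99% of C1s1 occurred in another gene as well. A pair with a read in a unique stretch can still be placed, so these are not shares of lost pairs. The windows of 60 coding bases with the most differences are shown for both pairs, since reads there do tell the copies apart. Capitals mark the bases that differ within a pair, 11 for C1r and 17 for C1s, each sequence runs 5′ to 3′ on the strand of its gene, and positions are those of GRCm39.
C1ra, chr6:124499613-124499672, plus strand: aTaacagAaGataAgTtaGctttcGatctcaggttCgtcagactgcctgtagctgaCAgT
C1rb, chr6:124557659-124557718, plus strand: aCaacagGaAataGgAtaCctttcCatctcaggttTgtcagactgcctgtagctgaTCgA
C1s1, chr6:124508445-124508504, minus strand: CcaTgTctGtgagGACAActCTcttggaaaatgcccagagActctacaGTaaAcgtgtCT
C1s2, chr6:124602667-124602726, minus strand: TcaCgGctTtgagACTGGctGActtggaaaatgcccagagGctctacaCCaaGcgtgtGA
Reads that could be placed were nearly all from C1ra and C1s1. C1rb had 1 read in 1 EDA-A2 library and none elsewhere, and C1s2 had 1 and 4 reads in Control and 4 and 6 after EDA-A2. Adding the copies moved the log2 fold change of C1ra to 0.37 and that of C1s1 to 0.71, neither of them called. C1s1 also shares 16.6% of its exonic bases with Gm16567 on the opposite strand, and the counting is not stated to have used strand.

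C4b, C2 and Cfb lie together on the minus strand of chromosome 17, in the complement part of the major histocompatibility complex, at chr17:34947354-34962912, chr17:35081578-35117241 and chr17:35074852-35081559 of GRCm39. They encode C4, the protein that C1s cuts first, and the proteases of the C3-cutting enzymes of the classical and the alternative pathway. C4b had 0 reads in all 4 libraries. Its copy C4a, with 96.2% identity over 5202 aligned coding bases and 16.5% of its windows shared, had 5 and 15 reads in Control and 12 and 11 after EDA-A2. The log2 fold change of C4a was 0.15 (standard error 0.54, edgeR adjusted p = 0.946). C2 had 10.3 and 10.1 normalized counts in Control and 11.8 and 9.83 after EDA-A2, so its groups overlapped. At about 10 reads a library the 95% interval of its log2 fold change, 0.082, ran from -0.94 to 1.10 (edgeR adjusted p = 0.966). Cfb had 1 read in EDA-A2 replicate 2 and 0 in the other 3 libraries. The exons of another annotated gene, Gm20547, cover 38.4% of the exonic bases of C2 and 65.7% of those of Cfb on the same strand, and reads there match more than 1 gene. Gm20547 itself had no reads, and Nelfe, on the opposite strand, covers 49.8% of the exonic bases of Cfb.

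Cfd, which encodes factor D and is known as an adipocyte product (chr10:79726668-79728496 of GRCm39, plus strand), also had 0 reads in all libraries. It shares no exonic base and no window with another gene. Of the genes behind the C3-cutting enzymes, C4b, Cfb and Cfd thus had 0 or 1 read in every library and C2 had 10 to 12 raw counts. With so few reads, differences of C4b, Cfb and Cfd between the groups were not detectable. For Cfb, reads on the bases shared with Gm20547 may also have been left out as ambiguous.

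Of the inhibitors, Serping1 and Cd55 gave estimates of opposite sign and neither was called. Serping1 (chr2:84595705-84620873, minus strand) had 23.7 and 35.3 normalized counts in Control and 23.5 and 17.7 after EDA-A2. The groups did not overlap, though Control replicate 1 and EDA-A2 replicate 1 were almost equal. Its log2 fold change was -0.52 (standard error 0.36, 95% interval -1.29 to 0.25, edgeR adjusted p = 0.571), and without Control replicate 2 it was -0.20. Cd55 (chr1:130366469-130390926, minus strand) had 22.7 and 23.2 normalized counts in Control and 32.3 and 33.4 after EDA-A2. The libraries of a group were close together and the groups apart, and the log2 fold change was 0.52 (standard error 0.32, 95% interval -0.17 to 1.21, edgeR adjusted p = 0.507). With each library left out that of Cd55 stayed between 0.49 and 0.54. Gm16083, on the opposite strand, covers 11.5% of the exonic bases of Cd55, and 5.26% of its windows occur in the copy Cd55b, which had no reads.

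Over the 6 tested genes, 3 had both EDA-A2 libraries above both Control libraries (C3, C1s1 and Cd55) and 1 had both below (Serping1). Of all tested genes, 22.8% had EDA-A2 above without overlap and 22.2% had it below. The median log2 fold change of the 6 genes was 0.44, beside -0.0021 over all tested genes. A gene had to reach the count filter to enter this median, so it does not describe the 9 genes.

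**Figure D3:**
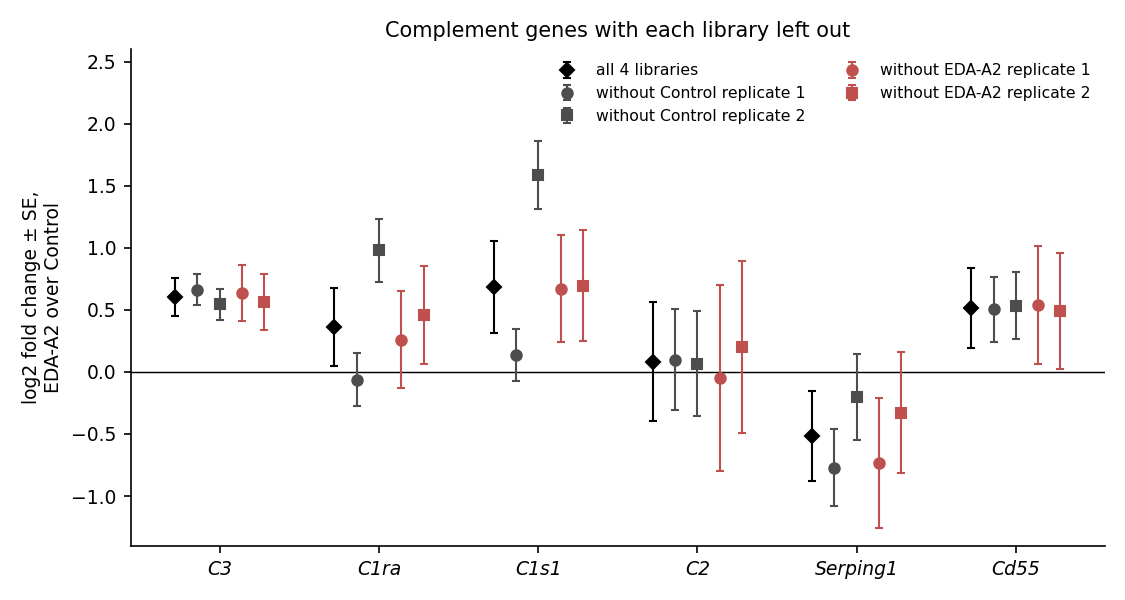
Log2 fold change of EDA-A2 over Control (vertical axis, with standard error) for the 6 tested complement genes, with all 4 libraries and after each was left out. C3 and Cd55 stay within 0.54 to 0.66 and 0.49 to 0.54, and C1ra and C1s1 move to -0.063 and 0.14 without Control replicate 1.

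A wider list of 59 complement genes, from recognition molecules to receptors, places these values in the pathway. Of them 24 could be tested, 21 had no read in any library, 7 had 1 to 3 reads in their highest library, and 7 had more but did not reach the filter. Among the tested genes 1 was called higher (C3) and 1 lower (Masp1), 15 had a log2 fold change above 0 and 9 below, and the median was 0.049. The call rates over all genes were those given above, 2.45% and 2.13%.

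Masp1 encodes a protease that starts the lectin pathway, and it was higher per length than C3, at 2.30 FPKM. It had 1084 and 996 normalized counts in Control and 805 and 819 after EDA-A2, with no overlap between the groups. Masp1 fell by 0.36 on the log2 scale (standard error 0.085, edgeR quasi-likelihood test, Benjamini-Hochberg adjusted p = 0.0251). The call was lost with scaling by total counts (edgeR adjusted p = 0.0649), in DESeq2 (adjusted p = 0.0546), without the count filter (edgeR adjusted p = 0.192) and with each library left out (edgeR adjusted p of 0.158 to 0.301).

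By role, the 3 genes of C1q, which starts the classical pathway, had no read in any library. Of 7 C1 and MASP proteases 4 were tested, and of 7 lectin pathway recognition genes 3 were tested with none called. The terminal pathway, which builds the membrane attack complex, had 7 genes of which only C8g was tested, at a log2 fold change of 0.60 that was not called. Of 11 fluid-phase regulators 4 were tested, and of 7 membrane regulators 4, with none called and medians of -0.067 and 0.16. Of 10 receptors 4 were tested and none called. The receptor with the largest estimate was Itgam, a chain of complement receptor 3, named here after its values were seen. It had 18.5 and 18.2 normalized counts in Control and 38.2 and 31.4 after EDA-A2, a log2 fold change of 0.92 (standard error 0.34, edgeR adjusted p = 0.168).

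**Figure D4:**
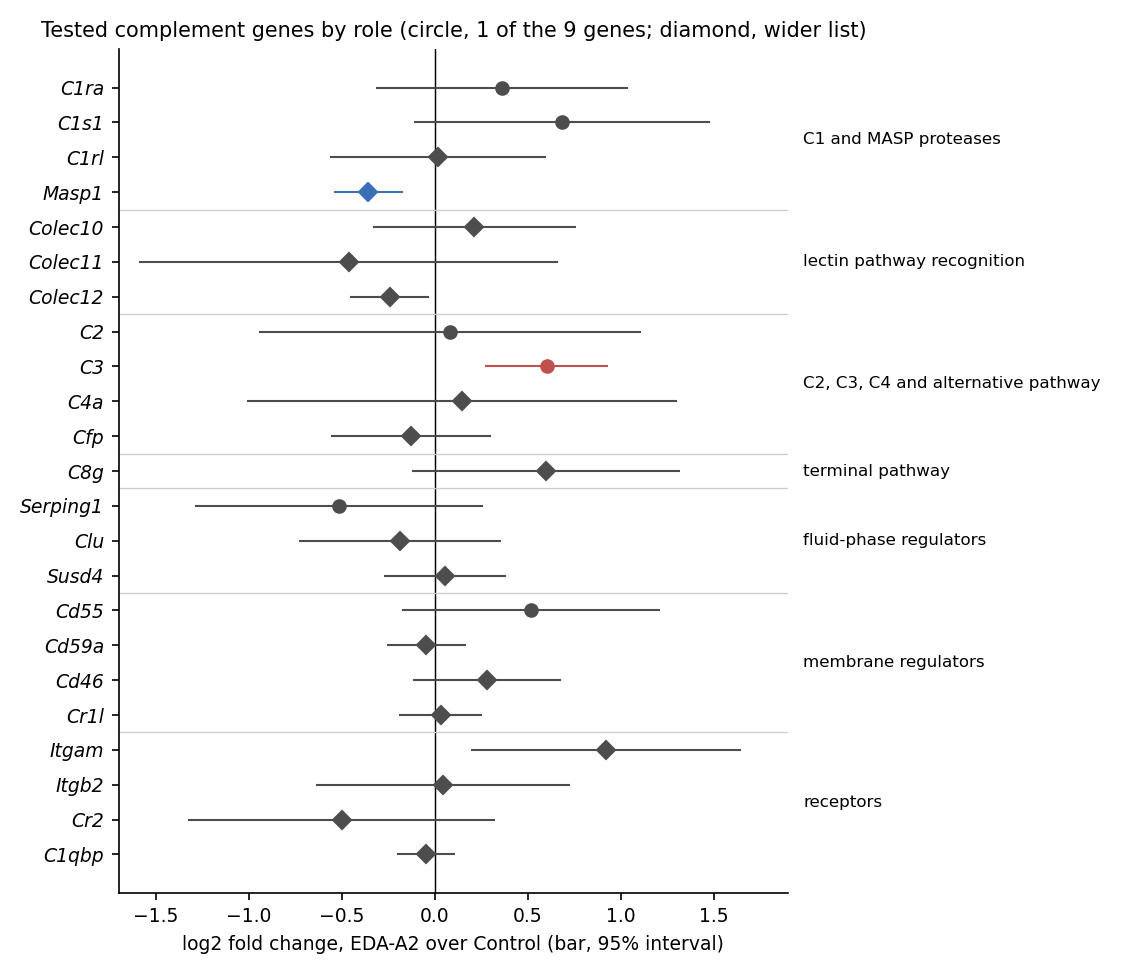
Log2 fold change of EDA-A2 over Control (horizontal axis, bars 95% intervals) of 23 of the 24 tested genes of the wider complement list, grouped by role; circles are genes of the 9, diamonds the others, red is called higher and blue called lower. C3 at 0.60 and Masp1 at -0.36 are the called genes. The intervals are not adjusted for the number of genes tested. Those of Colec12 and Itgam also leave out 0, but neither gene was called (edgeR adjusted p = 0.223 and 0.168).

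Within 100 kb of the 9 genes lay 62 other protein-coding genes, of which 45 were tested, 0 were called higher and 1 lower, and their median log2 fold change was -0.024. Over all genes tested, 2.45% were called higher and 2.13% lower, so 1 call among 45 is near that share. The called neighbour was Hspa1l, a heat shock protein gene near C2 (chr17:35191664-35198261 of GRCm39). It had 216 and 229 normalized counts in Control and 151 and 132 after EDA-A2, a log2 fold change of -0.66 (standard error 0.15, edgeR adjusted p = 0.0207). Without the count filter and in DESeq2 no neighbour was called. The genes whose centred log2 CPM was most like that of C3 over the 4 libraries included Panx1 and Gm13889, with root mean square differences of 0.017 and 0.021. They were picked for closeness over these same 4 libraries, so small differences follow from the choice. Shared control with C3 was not tested. Panx1, a channel gene, had 602 and 546 normalized counts in Control and 863 and 884 after EDA-A2.

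Other cells that make complement were looked for by their markers. Of 12 macrophage markers 4 were at 0 in all libraries (C1qa, C1qb, C1qc and Tyrobp), Adgre1 had 1 read in 1 Control library, and Ptprc had at most 2 reads. C1qa, C1qb and C1qc are also on the wider complement list, so their zeros are not separate information. The summed level of the 12 was 291 and 256 normalized counts in Control and 401 and 300 after EDA-A2. Both EDA-A2 libraries were above both Control libraries, though EDA-A2 replicate 2 was close to Control replicate 1. Of all tested genes, 22.8% had EDA-A2 above without overlap. Only 3 of the 12 could be tested, and none of these was called. Mrc1 gave most of the sum, with 217 and 169 in Control and 282 and 200 after EDA-A2, so its groups overlapped. Cd68 (55.6 and 63.5 against 79.4 and 67.8) and Cd14 (11.3 and 17.1 against 29.4 and 25.6) had both EDA-A2 libraries above both Control libraries, with edgeR adjusted p of 0.619 and 0.229. The 7 endothelial markers summed to 145 and 161 in Control and 183 and 168 after EDA-A2, again with EDA-A2 above, and 1 of them was at 0. Vwf gave most of that sum, with 112 and 125 against 147 and 139, Pecam1 had 4 to 10 raw counts, and neither of the 2 endothelial markers tested was called.

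The 10 fibroblast markers, of which 2 were at 0 and 7 could be tested, summed to 52504 and 54794 in Control and 49822 and 50728 after EDA-A2. Col3a1, a fibrillar collagen, gave most of that sum, at 43031 ± 4291 and 41991 ± 291 (SD, n = 2 per group). Others of the list were low, with Lum and Thy1 at 0, Dpt at 2 to 3 raw counts, Col1a2 at 12 to 21 and Dcn at 73 to 138. The marker called was Pdgfrb, a growth factor receptor, which fell from 969 ± 21.9 to 709 ± 88.1 (log2 fold change -0.45, edgeR adjusted p = 0.0125). Dcn went the other way, from 87.5 ± 17.4 to 122 ± 18.5 (log2 fold change 0.48, edgeR adjusted p = 0.267), and was not called. Pdgfra had 268 ± 29.1 and 298 ± 5.00 and was not called. Col1a1 had 9277 normalized counts in Control replicate 1, against 4675 to 5802 in the other libraries, and was not called. The 7 myoblast markers, with none at 0, summed to 60754 and 58782 in Control and 61916 and 61877 after EDA-A2. Des, which is also on the myotube list, and Itga7 gave most of that sum, and the 2 markers called went in opposite directions. Vcam1, an adhesion molecule, rose 1.44-fold from 1309 ± 167 to 1888 ± 102 normalized counts (edgeR adjusted p = 0.0025), and Cdh15, M-cadherin, fell from 3651 ± 424 to 2644 ± 110 (edgeR adjusted p = 0.0032). The 7 adipocyte markers summed to 7.86 to 17.1 with Adipoq at 0 to 3 raw counts and 3 at 0, Cfd itself among them. The 6 T cell markers summed to 13.7 to 32.3 with 2 at 0. Marker genes other than the defining ones were named after their values were seen. The part of these cells in the values of C3 and the other complement genes was not tested.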

How the data were processed

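Polyadenylated RNA of 2 Control and 2 EDA-A2 libraries was sequenced from stranded libraries as read pairs of 100 bases. The submitters' processing notes list FastQC 0.11.9, MultiQC 1.12, Trim Galore 0.6.5, STAR 2.7.3a, HTSeq 0.11.1 and the GRCm39 build, and the annotation release and strand option are not given in the sources used here. The deposited tables hold the raw counts that the authors obtained for each Ensembl gene, not normalized. Pairs that HTSeq gave to no gene were left out (6.68% to 7.40% outside genes, 0.946% to 0.986% ambiguous, 4.56% to 4.76% not unique). Symbols came from GENCODE vM39, which matched 52610 of 53647 genes. Counts were tested in R 4.3.3 with edgeR 4.0.16 (TMM, filterByExpr with a minimum count of 10 and total of 15, glmQLFit, glmQLFTest, Benjamini-Hochberg, threshold 0.05), with group as the only term. The steps were tested on simulated data with the same spread for every gene and larger changes than that of C3. That test does not speak for the call of C3. Alternatives were other scalings, other filters, DESeq2 1.42.0, a replicate block, protein-coding genes only, sums with near-identical copies, and each library left out.

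The 9 genes, the lists and the tests were chosen with earlier results of these data known. Named genes were the 9, called genes and near-identical copies of the wider list, called neighbours within 100 kb, the 3 genes most like C3 with a mean log2 CPM of at least 3, and defining markers. Other named genes were chosen after their values were seen. Some genes covered by this rule are not reported here.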

Additional observations from a re-analysis of the deposited data

How the results depend on the processing

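The count of complement genes called higher, 1 (C3) among the 9 and in the wider list, was the same under the 3 other scalings, with at least 10 counts in every library, with protein-coding genes only and with the replicate block, and became 0 with no filter, in DESeq2 and with each library left out (0 to 0). No gene of the 9 was called lower in any of the 12 alternatives, and with all 4 libraries 1 of the 9 (C3) had an unadjusted p under 0.05. The count called lower in the wider list, 1 (Masp1), became 0 with total counts, with no filter, in DESeq2 and with each library left out (0 to 0). Total counts moved the median log2 fold change of all genes to 0.053, against -0.0021. The count of called neighbours, 1, became 0 with no filter and in DESeq2 and was 0 to 1 with each library left out. Dropping the filter left 25545 genes to test, with 64 called higher and 22 lower, against 371 and 323. With 1 library of a group left out, the lone library is assumed to vary like the other group. The log2 fold change of C1ra was -0.063 to 0.98 and that of C2 -0.051 to 0.20 with each library left out, so that both reversed. The cause of these changes was not tested. Replicates of the same number did not deviate together (r = 0.060 over 15173 genes), so the numbers were not taken as pairs. With the replicate block 537 genes were higher and 529 lower, C3 stayed called (log2 fold change 0.60, edgeR adjusted p = 0.0219), and the counts among the complement genes did not change (1 higher and 0 lower of the 9, 1 and 1 of the wider list). Few reads limit the values of C4b, Cfb, Cfd and C2, which had 0 to 12 raw counts. For C2 and Cfb the exonic bases shared with Gm20547 are a further limit, since reads there match more than 1 gene.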
